A study of Homo sapiens with 5 samples.

Results

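BR-DIM for 48 h and isoflavone for 72 h were the late arrays of a study of diet-derived compounds in C4-2B cells, and they are described here side by side as 2 of its 5 arrays, chosen by their labels. C4-2B is a human prostate cancer line derived from LNCaP and known for spreading to bone. The remaining arrays were 1 of DMSO-treated control cells, 1 of BR-DIM for 6 h and 1 of isoflavone for 6 h. Both compounds were given at 25 µM, which for isoflavone (the soy mixture G2535) counts its genistein alone, and no source used here gives the control's time in culture. Because the late times differed, at 48 h and 72 h, compound and time cannot be told apart. Each condition has 1 array, so there was no replicate spread to test against, no p-value could be had and the values describe these arrays only. The labels name no separate cultures. In the values that follow, late means BR-DIM 48 h or isoflavone 72 h and early means the 6 h array of the same compound.

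BR-DIM is a formulated diindolylmethane, a compound that arises from an indole of cruciferous vegetables and is known as a ligand of the aryl hydrocarbon receptor (AhR). AhR is a transcription factor that pairs with ARNT when a ligand binds it, and it raises CYP1 enzymes and TIPARP. Genistein, the main isoflavone of soy, is known as a tyrosine kinase inhibitor and a weak ligand of estrogen receptors. ATF4, translated when cells lack amino acids or load their endoplasmic reticulum, raises genes of amino acid synthesis and transport. Luminal prostate cells are known for epithelial junction proteins and for androgen-driven secreted proteases such as KLK3, which is prostate-specific antigen (PSA).

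These programmes are tied to different short motifs, and 1 promoter of each is shown because its gene carries a result below: KLK3 for the androgen-driven genes, TIPARP for AhR and CHAC1 for ATF4. Each run is the 250 bases before the annotated start on the plus strand, from RefSeq on GRCh38.p14, with the motif in capitals. The motifs searched on both strands were AGAACA (androgen receptor core), GCGTG (AhR core, CACGC on the other strand) and TGATGNAA (C/EBP-ATF composite core, where N is any base). The KLK3 run lies at chr19:50854665-50854914, the TIPARP run at chr3:156674340-156674589 and the CHAC1 run at chr15:40953221-40953470.
KLK3: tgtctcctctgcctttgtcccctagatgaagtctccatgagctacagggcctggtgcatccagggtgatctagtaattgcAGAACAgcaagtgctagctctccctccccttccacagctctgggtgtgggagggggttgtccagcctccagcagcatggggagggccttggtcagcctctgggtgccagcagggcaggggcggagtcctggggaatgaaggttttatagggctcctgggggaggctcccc
TIPARP: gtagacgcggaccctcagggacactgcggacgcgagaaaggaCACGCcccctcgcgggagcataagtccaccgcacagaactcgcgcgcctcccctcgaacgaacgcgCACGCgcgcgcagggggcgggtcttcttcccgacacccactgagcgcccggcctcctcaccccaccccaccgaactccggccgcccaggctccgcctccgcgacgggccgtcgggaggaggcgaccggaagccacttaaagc
CHAC1: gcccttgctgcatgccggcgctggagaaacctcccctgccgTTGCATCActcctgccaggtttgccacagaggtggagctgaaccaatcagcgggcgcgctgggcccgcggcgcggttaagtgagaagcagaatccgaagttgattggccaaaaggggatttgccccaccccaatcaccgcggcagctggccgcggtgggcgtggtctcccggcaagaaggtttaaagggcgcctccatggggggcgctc
Counted from the start, AGAACA began at -170 in KLK3, CACGC at -208 and -142 in TIPARP, and TTGCATCA, the composite core on the other strand, at -209 in CHAC1. In windows of 300 bases that run 50 bases past the start, GCGTG was in 5 of 7 AhR list promoters (71.4%), against 35.9% of 27305 promoters. TGATGNAA was in 4 of 27 ATF4 list promoters (14.8%) and in 4 of 16 aminoacyl-tRNA synthetase promoters (25.0%), against 3.75% of all. AGAACA was in 1 of 17 androgen list promoters (5.88%), against 15.1% of all promoters. A match is a run of letters and shows no binding.

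The values are linear intensities scaled by the authors, called signals here, whose 2% trimmed mean ran from 498.1 to 498.4 over the 5 arrays and whose median ran from 89.3 to 109. Each of 19775 genes was read from 1 of 54613 probe sets. Signals under 97.1, the median of all signals, were raised to that floor before ratios were taken, so a ratio that meets it is a bound, and a gene counted as different at 2-fold or more. As a check of the cell type label, 8 of 9 luminal markers lay above the floor on the control array, with a summed signal of 11982. The sum for BR-DIM 6 h was 12429 and for isoflavone 72 h 11396, but 2593 and 1839 on the BR-DIM 48 h and isoflavone 6 h arrays. Bright markers weigh most in these sums. Over the control, 8 of the 9 were lower on BR-DIM 48 h and 2, KLK3 and KLK2, on isoflavone 72 h, against 3.86% and 2.07% of all genes. Higher on isoflavone 72 h was 1, STEAP2, against 4.80% of all genes. On BR-DIM 48 h 4 of the 9, KLK3, KLK2, FOLH1 and TMPRSS2, were under the floor. So the BR-DIM 48 h array stood apart from its own 6 h array and the control, together with the isoflavone 6 h array. The counts that rest most on this are also given below without 152 genes. For these, BR-DIM 48 h lay at least 2-fold under BR-DIM 6 h and isoflavone 6 h as far under isoflavone 72 h. In RNA from whole cultures, fewer cells of a type and less RNA per cell cannot be told apart.

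Most genes were alike on the late arrays, and the larger differences lay on the side where BR-DIM 48 h was lower. Of 13027 genes measured, 306 were higher by 2-fold or more on BR-DIM 48 h than on isoflavone 72 h (2.35%), and 544 were lower by as much (4.18%). The remaining 93.5% lay within 2-fold, with a median log2 ratio of 0.02 and its 5th and 95th percentiles at -0.93 and 0.81. At 4-fold or more there were 4 higher and 84 lower genes, and at 8-fold or more 1 and 25. For 152 genes BR-DIM 48 h lay 2-fold or more under its own 6 h array while isoflavone 6 h lay as far under its own 72 h array. Without these, 306 were higher and 398 lower. They were chosen by these 2 differences alone, and the control was not used. GDF15 is among them, at 1031 on BR-DIM 48 h against 596 on the control. Leaving the 152 out removes lower genes nearly by construction. The same holds for genes higher with BR-DIM at 6 h. Counts without them, here and below, show how much of a count they hold and test nothing. Counted over single probe sets, 926 of 30169 were higher (3.07%) and 1730 lower (5.73%). Where a different gene had further probe sets, these had the same sign for 72.2% of 248 among the higher genes and 75.8% of 396 among the lower ones, but only 14.5% and 23.7% of them passed 2-fold too. Next to the threshold, PIM2 was just inside at 1.0007 on the log2 scale and TENM4 just outside at 0.9993, and GULP1 was inside at -1.0014 and CCDC157 outside at -0.9985. A ratio that met the floor made up 64 of the higher and 171 of the lower genes.

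**Figure D1:**
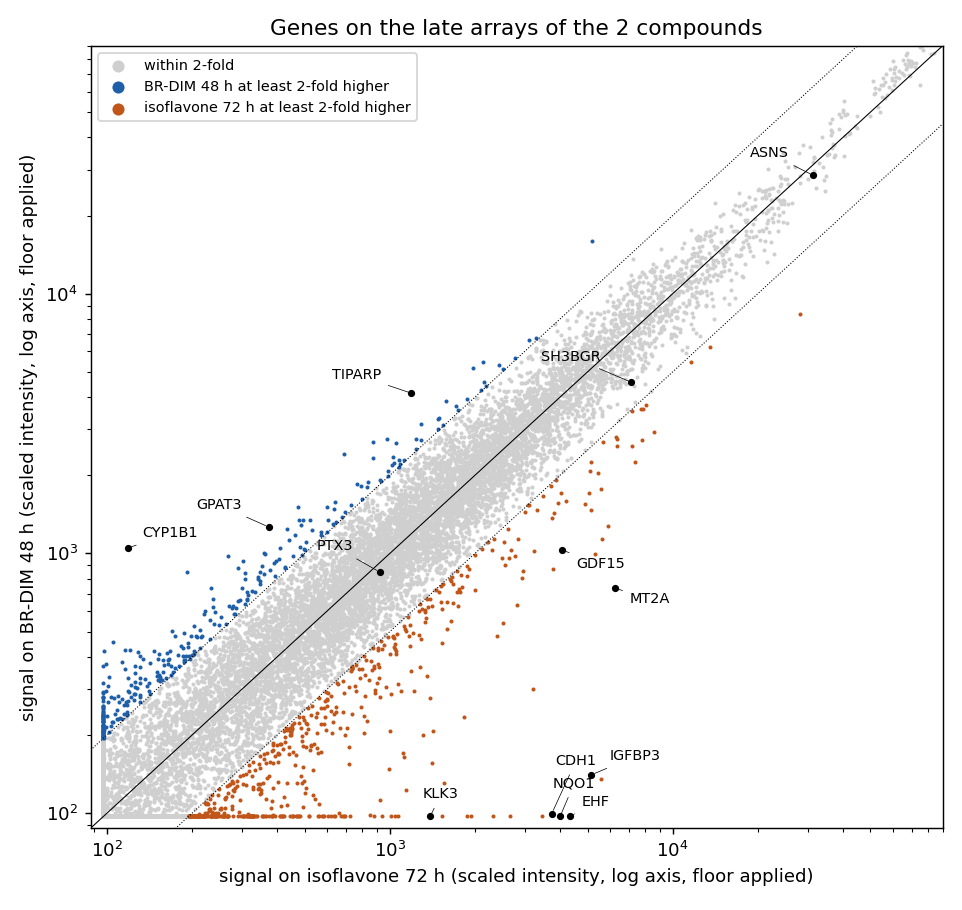
Signal of each measured gene on isoflavone 72 h (horizontal, log axis) and BR-DIM 48 h (vertical, log axis), with the floor of 97.1 applied; the solid line marks equal signals and the dotted lines 2-fold. CYP1B1 stands 8.86-fold above the line of equal signals, and EHF, NQO1 and KLK3 lie on the floor of BR-DIM 48 h.

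The largest ratio in favour of BR-DIM 48 h was that of CYP1B1, an AhR target, while most of the AhR list stayed within 2-fold. CYP1B1, a monooxygenase that AhR raises, had a signal of 172 on the control, 960.5 and 1048 on BR-DIM 6 h and 48 h, and 150.1 and 118 on isoflavone 6 h and 72 h. Both BR-DIM arrays were above all others, and the late log2 ratio was 3.15, or 8.86-fold. Its other probe sets gave 2.30 and 2.60. TIPARP, a mono-ADP-ribosyltransferase that AhR raises and that feeds back on it, read 4138 on BR-DIM 48 h against 1192 on isoflavone 72 h, 3267 and 1779 on the 6 h arrays of BR-DIM and isoflavone, and 1188 on the control, a late log2 ratio of 1.80. The isoflavone 72 h array was within 0.01 log2 of the control for it. CYP1A1, the classical AhR target, read 166 late and 1170.0 early with BR-DIM, 134 late and 83.7 early with isoflavone, and 88.9 on the control. It was high on BR-DIM 6 h alone, and the late log2 ratio was 0.31. CYP1A2, the related enzyme, read 117 on the control, 363 and 139 on BR-DIM 6 h and 48 h, and 121 and 109 on isoflavone 6 h and 72 h, with a late ratio of 0.35. The receptor itself, AHR, read 503 on BR-DIM 48 h against 374 on isoflavone 72 h, 223 and 289 on the 6 h arrays of BR-DIM and isoflavone, and 365 on the control, and its partner ARNT stayed between 419.9 and 576 on all arrays. AHRR, the repressor of the receptor, gave -0.23. NQO1, a quinone reductase reached by both AhR and NRF2, went the other way: 48.3 late and 866 early with BR-DIM, 3999.8 late and 160.5 early with isoflavone, and 919.6 on the control, a bound of -5.36. In all, 2 of 9 measured members were higher and 1 was lower, against 2.35% and 4.18% of all genes. The median was 0.31, against 0.02 over all genes.

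Beyond CYP1B1 and TIPARP, 10 other genes made up the 12 largest ratios in favour of BR-DIM 48 h, and for several of them the difference rested on 1 probe set. GPAT3, an acyltransferase of triglyceride synthesis, read 223 on the control, 332 and 1262 on BR-DIM 6 h and 48 h, and 81.6 and 373 on isoflavone 6 h and 72 h. BR-DIM 48 h stood above all other arrays for it, and the late log2 ratio was 1.76. IL12A, a cytokine subunit, read 425 on BR-DIM 48 h against 115.6 on isoflavone 72 h, 456 and 65.0 on the 6 h arrays of BR-DIM and isoflavone, and 78.8 on the control, so that both BR-DIM arrays were high and the other arrays were at or near the floor. NRP2, a coreceptor for semaphorins and VEGF, read 426 late and 244 early with BR-DIM, 121 late and 104 early with isoflavone, and 85.8 on the control, a late ratio of 1.82, while its other probe sets gave 0.06, 0.17 and 0.98. NRP1, the sister coreceptor, gave 2.14 from signals of 626 on the control, 720.2 and 846 on BR-DIM 6 h and 48 h, and 451 and 192 on isoflavone 6 h and 72 h. Its brightest other probe set gave 0.23, so the difference was not seen across probe sets. BICD1, a dynein adaptor, gave 1.87, with its other probe sets between -0.68 and 0.44, and NDE1, another dynein partner, gave 1.81, with the others between -0.18 and 0.26. PHF19, a Polycomb accessory protein, gave 1.67, and its other probe sets gave 2.07 and 0.26. TMEM225B (2.13), the ephrin receptor EPHA8 (2.11) and GLDN, a gliomedin of nerve contacts (1.69), completed the 12 largest.

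Genes of luminal and epithelial identity were among the largest differences in the other direction. EHF, an epithelial ETS factor, read 33.5 on BR-DIM 48 h against 4347 on isoflavone 72 h, 2296 and 91.8 on the 6 h arrays of BR-DIM and isoflavone, and 2775 on the control. The 2 low arrays were under the floor and the isoflavone 72 h array was the brightest of the 5, a difference of at least 44.8-fold (log2 -5.48). Its 5 other probe sets above the floor were lower on BR-DIM 48 h too, from -1.84 to -0.61. CDH1, which encodes E-cadherin, the adhesion protein of epithelial junctions, read 99.5 late and 2114 early with BR-DIM, 3736 late and 85.9 early with isoflavone, and 2195 on the control. The late log2 ratio was -5.23, or 37.6-fold. KLK3, whose promoter is shown above, read 4219 on the control, 3560.0 and 11.8 on BR-DIM 6 h and 48 h, and 134 and 1388 on isoflavone 6 h and 72 h. BR-DIM 48 h was far below the floor, isoflavone 72 h lay under the control with a log2 ratio of -1.60, and the late ratio was a bound of -3.84. A second KLK3 probe set gave a bound of -3.99 and another 0.04.

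Among 12 measured luminal transcription factors, 6 were lower on BR-DIM 48 h, against 4.18% of all genes. None was higher, against 2.35%, and the median was -1.02. Besides EHF the 6 were GRHL2 (a bound of -3.27), a grainyhead factor of epithelia, ELF3 (a bound of -1.63), the splicing factor ESRP1 (-1.57), the pioneer factor FOXA1 (-1.47) and SPDEF (a bound of -1.10). FOXA1 read 124 on BR-DIM 48 h against 345 on isoflavone 72 h, 319 and 62.5 on the 6 h arrays of BR-DIM and isoflavone, and 425 on the control. HOXB13, the prostate homeobox factor, gave -0.78, and KLF5 was the member above 0 (0.68). Among 24 epithelial junction and keratin genes, 8 were lower, against 4.18% of all genes, none was higher and the median was -0.76. The serine protease inhibitor SPINT2 read 39.5 late and 947 early with BR-DIM, 1012 late and 119.6 early with isoflavone, and 830.3 on the control, a bound of -3.38. The tight junction claudin CLDN7 gave a bound of -2.72, the vesicle GTPase RAB25 a bound of -2.57, and the adhesion molecule EPCAM -1.90. Keratins KRT8 (-1.55) and KRT18 (-1.38) were lower, and the desmosomal genes DSP (0.62) and DSG2 (0.50) lay above 0. On BR-DIM 48 h DSP read 5503 and DSG2 6211, far above the floor. The summed signal of the 24, in which bright members weigh most, was 26470 on the control. It was 29003 and 28903 on BR-DIM 6 h and 48 h, and 11696 and 35625 on isoflavone 6 h and 72 h. Without the 152 genes 2 of 7 luminal factors and 1 of 17 junction and keratin genes were lower, against 398 of 12875 genes. Over the 23 junction and keratin genes measured at 6 h, the BR-DIM array exceeded the isoflavone array by a median of 1.17.

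Among 21 androgen-induced genes, 4 were lower, against 4.18% of all genes, and none was higher, with a median of -0.13. All 4 were among the 152 genes, and 0 of the other 17 were lower. Besides KLK3 they were STEAP2, a metalloreductase (-2.42), PLPP1, a lipid phosphatase (-2.23), and TMPRSS2, a surface protease (a bound of -1.29). KLK2, the kallikrein next to KLK3, read 707 on the control, 525 and 7.2 on BR-DIM 6 h and 48 h, and 11.4 and 124 on isoflavone 6 h and 72 h. It was near or under the floor on both late arrays, so its late ratio of -0.35 is a bound. FKBP5, an androgen-induced cochaperone, was alike on the late arrays (0.11), and NDRG1, an androgen- and stress-induced gene, gave 0.85. Set against the control, 7 of the 21 were at least 2-fold lower with BR-DIM for 48 h, where 3.86% of all genes were. With isoflavone for 72 h 5 were, where 2.07% of all genes were. KLK3, KLK2, KLK4 and TRPM8 were lower in both cases. Higher were 2 and 1 of the 21, against 5.33% and 4.80% of all genes, and the medians were -0.37 and -0.33. Both comparisons share the control array. Of 11 measured genes of androgen synthesis and glucuronidation 4 were lower on BR-DIM 48 h, against 4.18% of all genes. None was higher, against 2.35%, the median was -0.02 and 5 lay above 0, HSD17B6 (0.83) among them. The 4 were UGT2B15 (a bound of -1.40) and the enzymes AKR1C1 (-2.16), AKR1C2 (-1.59) and AKR1C3 (-1.32), which interconvert steroids and are near-identical in sequence. AKR1C1 read 631 on BR-DIM 48 h against 2819 on isoflavone 72 h, 991 and 756 on the 6 h arrays of BR-DIM and isoflavone, and 652 on the control, so isoflavone 72 h was the array that departed from the others. A probe set of AKR1C1 that is not shared gave -0.09, so reads of these copies cannot be assigned with certainty.

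Mesenchymal genes ranged from bright on all arrays to under the floor on all. Of 20 with a probe set 16 were measured on the late arrays, and SNAI1, TGFBI, AXL and FOXC2 were under the floor on all 5. VIM, which encodes the intermediate filament vimentin, read 50009 late and 30013 early with BR-DIM, 40167 late and 33275 early with isoflavone, and 22024 on the control. ZEB1 and SNAI2, repressors of epithelial genes, gave late log2 ratios of 0.28 and 0.88, and CDH2, or N-cadherin, gave 0.47. Of 16 measured members 1 was higher, the collagen crosslinker LOX (1.51), and 1 lower, the matrix protein FN1 (-1.12), with a median of 0.34. Over all genes 2.35% were higher and 4.18% lower. The summed signal of the 16 was 54105 on the control, 66706 and 89772 on BR-DIM 6 h and 48 h, and 62390.1 and 85438 on isoflavone 6 h and 72 h. Markers of other cell types were mostly under the floor. The basal keratins KRT5, KRT14 and KRT15 and the leukocyte marker PTPRC were under it on all 5 arrays, and 1 of 5 basal, 4 of 9 neuroendocrine, 3 of 8 macrophage and osteoclast, 2 of 7 osteoblast, 3 of 8 fibroblast, 2 of 6 endothelial and 1 of 6 leukocyte markers were measured on the late arrays. LCP1, an actin bundler of leukocytes that many carcinoma lines also express, was the leukocyte member, at 651 on the control, 670.3 and 13.2 on BR-DIM 6 h and 48 h, and 22.8 and 482 on isoflavone 6 h and 72 h. The fibroblast collagen COL1A1 read 793 on BR-DIM 48 h against 414 on isoflavone 72 h, 972 and 449.6 on the 6 h arrays of BR-DIM and isoflavone, and 691 on the control. The summed signal of the measured fibroblast markers ran from 483.6 (isoflavone 72 h) to 1411 (BR-DIM 6 h), and their part in the results was not tested.

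**Figure D2:**
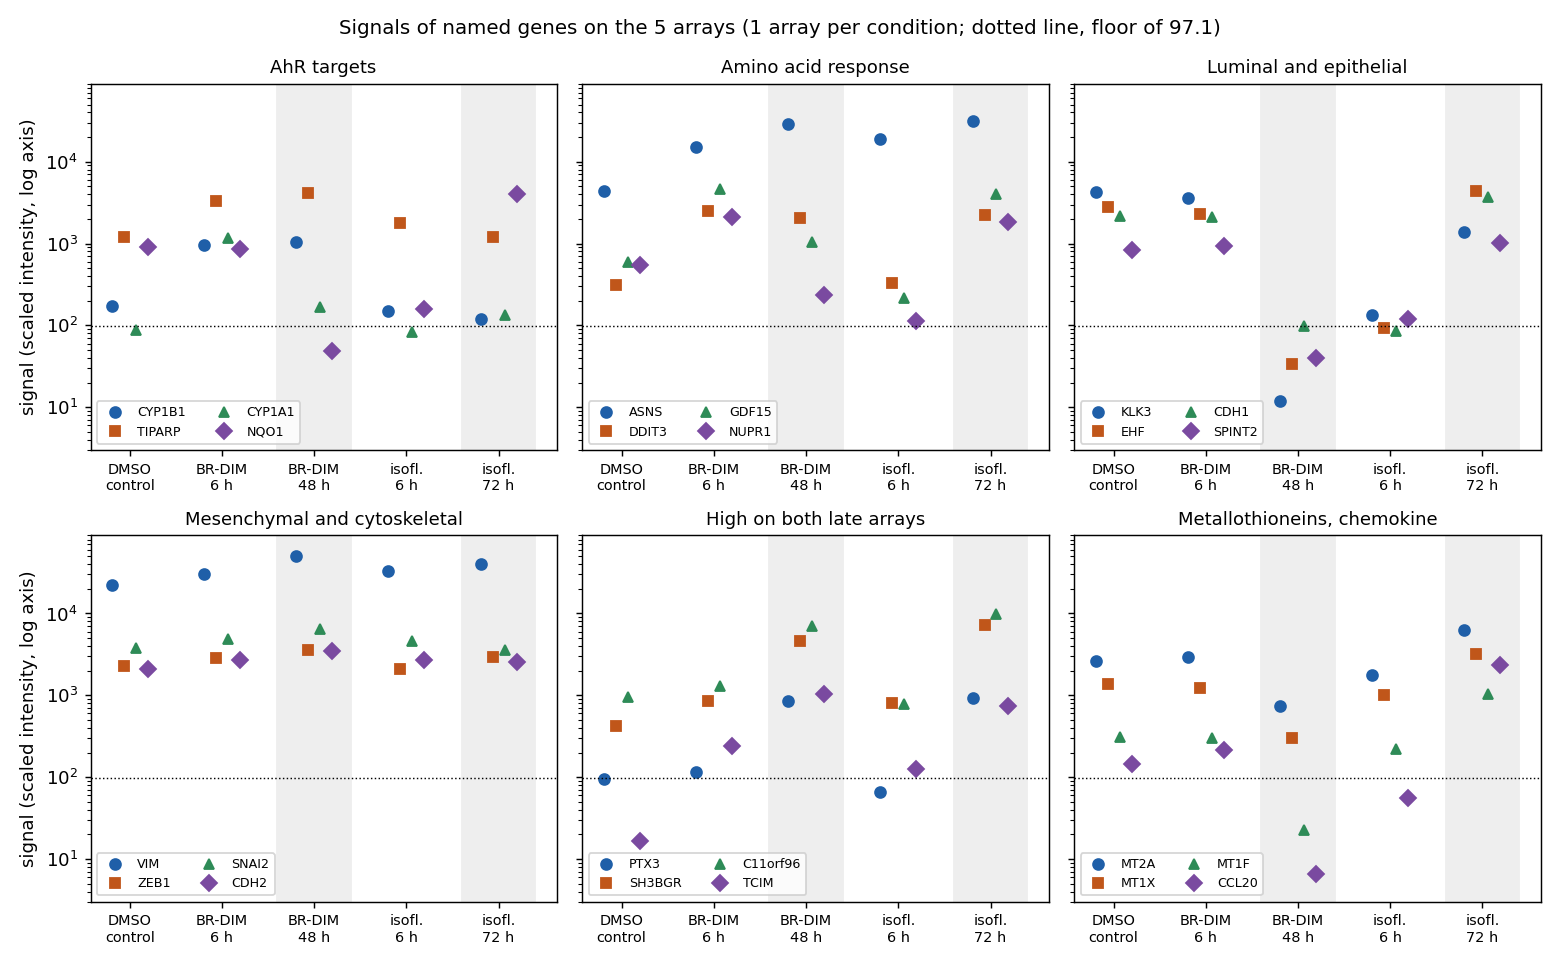
Signals of 24 named genes on the 5 arrays, on a log axis, with the late arrays shaded and the floor of 97.1 dotted; each point is 1 array. The luminal and epithelial genes plotted, KLK3, EHF, CDH1 and SPINT2, lie at or near the floor on the isoflavone 6 h and BR-DIM 48 h arrays. The mesenchymal genes plotted stay bright on all 5 arrays, and PTX3, SH3BGR, C11orf96 and TCIM are high on both late arrays.

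Further genes far lower on BR-DIM 48 h were IGFBP3, MME, MGST1, H2AJ, LCN2, MAGEA6 and PAGE1. IGFBP3, a binding protein of insulin-like growth factors, read 140.4 late and 1478 early with BR-DIM, 5164 late and 45.0 early with isoflavone, and 825 on the control. It was brightest on isoflavone 72 h, and the late log2 ratio was -5.20. MME, the surface peptidase neprilysin, gave a bound of -5.15, and MGST1, a microsomal glutathione transferase, gave -5.36. MGST1 has 1 probe set free of shared sequence, which gave -0.85. H2AJ, a histone variant, gave a bound of -4.78, and the cancer-testis antigens MAGEA6 and PAGE1, both of multigene families, gave bounds of -4.27 and -3.97. For IGFBP3, MME, MGST1, H2AJ, LCN2, MAGEA6 and PAGE1 the isoflavone 6 h array was low too.

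Which arrays carried a late difference was counted over 14015 genes, a count chosen after the data were seen. BR-DIM 48 h and isoflavone 6 h were both at least 2-fold below each of the other arrays for 90 genes (0.642%) and above for 1 (0.00714%). By the definition of this pattern all 90 belong to the 544, so that is not a result. BR-DIM 48 h alone was below the 4 other arrays for 57 genes (0.407%) and above for 36 (0.257%). Isoflavone 72 h alone was above for 65 (0.464%) and below for 18 (0.128%). Both BR-DIM arrays were above the others for 11 (0.0785%) and below for 4 (0.0285%), and both isoflavone arrays were above for 2 (0.0143%) and below for 3 (0.0214%). So at 2-fold a pattern that followed the compound at both of its times was found for 20 genes, against 90 that were low on the isoflavone 6 h and BR-DIM 48 h arrays. These patterns were not counted at other folds.

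The 11 genes high on both BR-DIM arrays included, beside CYP1B1, IL12A and NRP2, the sterol sensor partner INSIG1 and the Hedgehog receptor PTCH1, which were named after their values were seen. INSIG1 read 731 on the control, 3402 and 3017 on BR-DIM 6 h and 48 h, and 1206 and 1483 on isoflavone 6 h and 72 h. Its other probe sets gave late ratios of 0.55 and 0.59, both under 2-fold. PTCH1 read 774 on the control, 1754 and 2693 on BR-DIM 6 h and 48 h, and 792 and 870.2 on isoflavone 6 h and 72 h. The genes high on both isoflavone arrays were CGA, a glycoprotein hormone subunit, and EGR1, an early growth response factor. CGA read 211 on BR-DIM 48 h against 514 on isoflavone 72 h, 229.8 and 584 on the 6 h arrays of BR-DIM and isoflavone, and 180.2 on the control, and EGR1 read 509.6 late and 555 early with BR-DIM, 1597 late and 1189.7 early with isoflavone, and 396 on the control. Their late log2 ratios were -1.28 and -1.65.

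The genes high on isoflavone 72 h alone were led by CCL20, DHRS2, DIO3, CCL8, CFAP70, CXCL8, LCN2 and GPNMB. CCL20, a chemokine of the NF-kB programme, read 144 on the control, 216 and 6.5 on BR-DIM 6 h and 48 h, and 55.4 and 2319 on isoflavone 6 h and 72 h, at least 23.9-fold between the late arrays. CXCL8, or interleukin-8, read 32.2 on BR-DIM 48 h against 563 on isoflavone 72 h, 55.1 and 100.5 on the 6 h arrays of BR-DIM and isoflavone, and 50.3 on the control, and LCN2, the iron-carrier binding protein lipocalin 2, read 4.9 late and 413 early with BR-DIM, 1937 late and 71.7 early with isoflavone, and 245 on the control. All 3 were under the floor on BR-DIM 48 h. DHRS2, a short-chain dehydrogenase, read 92.6 on the control, 127 and 156 on BR-DIM 6 h and 48 h, and 102 and 1410.4 on isoflavone 6 h and 72 h. DIO3, which inactivates thyroid hormone, gave a bound of -2.83, the chemokine CCL8 a bound of -2.57 and the ciliary gene CFAP70 a bound of -2.64. Among 13 measured NF-kB factors and targets, 4 were lower on BR-DIM 48 h, against 4.18% of all genes. None was higher and the median was -0.48. Besides CCL20 and CXCL8 the 4 were NFKBIA, the inhibitor that NF-kB itself raises (-1.46), and the chemokine CXCL2 (a bound of -1.13). The subunits RELA (0.29) and NFKB2 (0.09) were alike. Without the 152 genes, CCL20 among them, 3 of 12 were lower. GPNMB, a lysosomal and melanosomal glycoprotein, read 112 on BR-DIM 48 h against 920.4 on isoflavone 72 h, 202 and 115.7 on the 6 h arrays of BR-DIM and isoflavone, and 138 on the control. TP53INP1, a stress-induced autophagy cofactor, gave -2.31 and read 481 late and 594 early with BR-DIM, 2386 late and 712 early with isoflavone, and 887 on the control. SQSTM1, an autophagy receptor that NRF2 raises, gave -1.65 from its brightest probe set, and 0.27 where probe sets with shared sequence were left out.

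Metallothioneins, which bind zinc and other metals, differed between the late arrays in both directions from the control. MT2A read 2638 on the control, 2951 and 734 on BR-DIM 6 h and 48 h, and 1788 and 6261 on isoflavone 6 h and 72 h. MT1X read 301 on BR-DIM 48 h against 3213 on isoflavone 72 h, 1221 and 1012 on the 6 h arrays of BR-DIM and isoflavone, and 1382 on the control, and MT1F read 22.5 late and 298 early with BR-DIM, 1044 late and 219 early with isoflavone, and 311 on the control. For each of these, BR-DIM 48 h was the lowest array and isoflavone 72 h the highest, and the late log2 ratios were -3.09, -3.41 and a bound of -3.43. Of 14 metallothionein and zinc genes measured, 6 were lower, against 4.18% of all genes, and none was higher (median -0.43). Without the 152 genes 3 of 11 were lower. The 6 were all metallothioneins, with MT1H at -3.12, MT1G at -1.48 and MT1E at -1.44. Their probe sets share sequence between family members, so the signal of one cannot be assigned to it alone. The zinc exporter SLC30A1 gave 0.93 and the metal-responsive factor MTF1 -0.01. Among 16 NRF2 targets 3 were lower, against 4.18% of all genes: NQO1, SLC7A11 and HMOX1, a heme oxygenase (-1.13). The glutathione synthesis subunits GCLM (-0.11) and GCLC (-0.27) were within 2-fold.

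**Figure D3:**
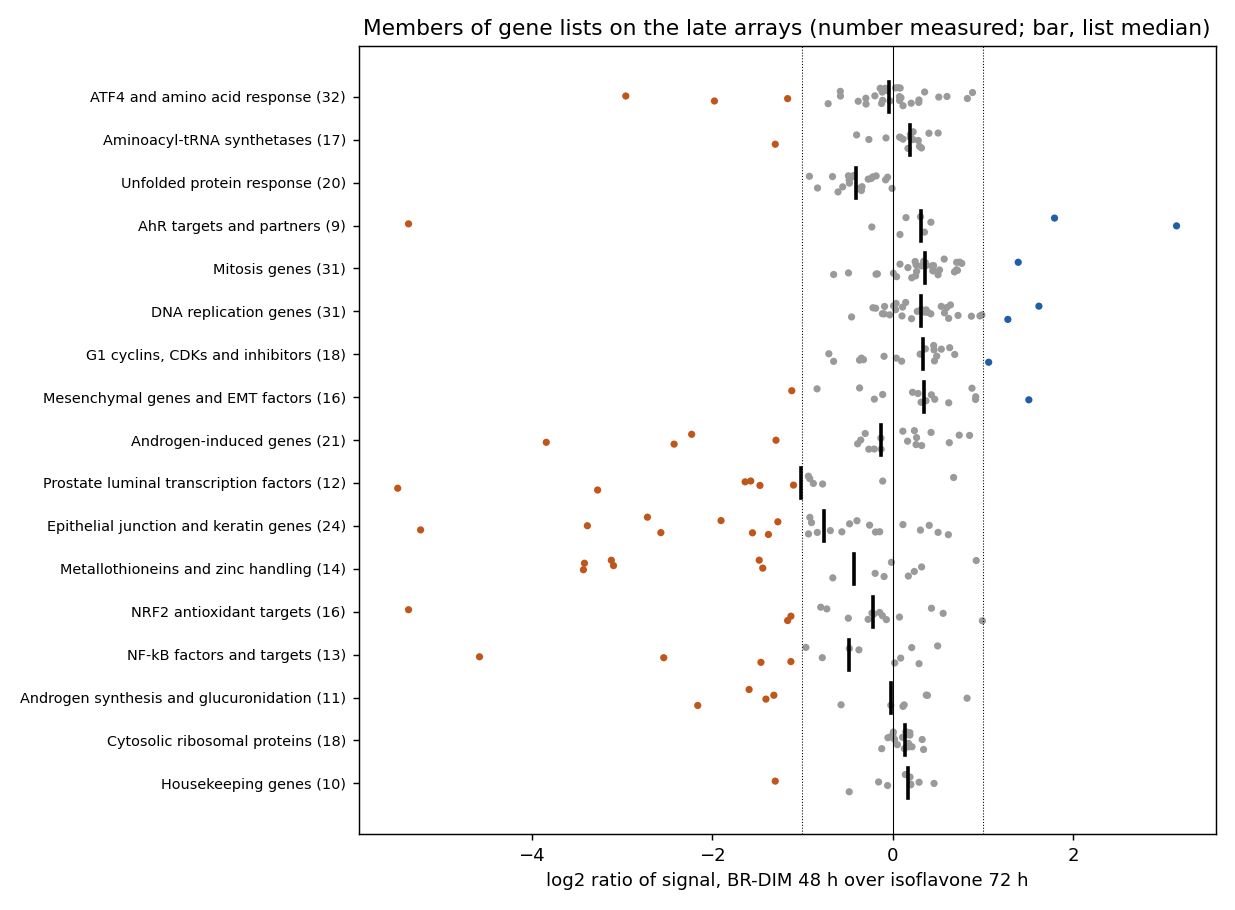
Late log2 ratio, BR-DIM 48 h over isoflavone 72 h, of each measured member of 17 gene lists (points; blue at least 2-fold higher, orange at least 2-fold lower) with list medians as bars and the number measured in brackets. Amino acid response, ribosomal protein and housekeeping genes have medians near 0, and luminal transcription factors have a median of -1.02. To the right of 0 lie 27 of 31 mitosis genes, against 6736 of all 13027 genes measured.

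Most genes of the amino acid response were above the control on both late arrays. Of 32 measured genes of ATF4 and the amino acid response, 23 (BR-DIM 48 h) and 24 (isoflavone 72 h) were at least 2-fold above the control, with median log2 ratios of 1.36 and 1.59. Over all genes 689 (5.33%) and 605 (4.80%) were higher than the control, with medians of 0.05 and 0.03. These comparisons share the control array, so their likeness is not a result of its own. Directly between the late arrays, 0 of the 32 were higher, 3 were lower, against 4.18% of all genes, and the median was -0.04. Without the 152 genes 1 of 30 was lower.

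ASNS, asparagine synthetase, read 4353 on the control, 14932 and 28562 on BR-DIM 6 h and 48 h, and 19146 and 31413 on isoflavone 6 h and 72 h. Both late arrays were the brightest of the 5, and the late log2 ratio was -0.14. DDIT3, the stress factor CHOP, read 2068 on BR-DIM 48 h against 2231 on isoflavone 72 h, 2484 and 327 on the 6 h arrays of BR-DIM and isoflavone, and 315 on the control. The isoflavone 6 h array was at the level of the control, and the late ratio was -0.11. CHAC1, a glutathione-degrading enzyme whose promoter is shown above, read 451 late and 849 early with BR-DIM, 491 late and 133.4 early with isoflavone, and 68.5 on the control, with a late ratio of -0.12. TRIB3, a pseudokinase that restrains ATF4, gave -0.08, ATF4 itself 0.08, the mTORC1 inhibitors SESN2 and DDIT4 -0.06 and -0.30, and the hormone STC2 0.21. ATF3, a factor that ATF4 raises, read 1134 on the control, 6934 and 10704 on BR-DIM 6 h and 48 h, and 3366 and 6023 on isoflavone 6 h and 72 h, a ratio of 0.83.

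The 3 members lower on BR-DIM 48 h were NUPR1, GDF15 and SLC7A11. NUPR1, a stress-induced chromatin protein, read 235 on BR-DIM 48 h against 1822 on isoflavone 72 h, 2131 and 112 on the 6 h arrays of BR-DIM and isoflavone, and 549 on the control. BR-DIM 48 h was under the control and isoflavone 72 h above it, and the late log2 ratio was -2.96. GDF15, a secreted stress cytokine, read 1031 late and 4695 early with BR-DIM, 4051 late and 217 early with isoflavone, and 596 on the control, a ratio of -1.97 from a probe set with shared sequence. SLC7A11, the cystine transporter, read 473 on the control, 3446 and 2812 on BR-DIM 6 h and 48 h, and 235 and 6297 on isoflavone 6 h and 72 h, with a ratio of -1.16 and -1.54 from another probe set. For NUPR1 and GDF15 the BR-DIM 6 h array had been as high as isoflavone 72 h or higher. At 6 h, 18 members were 2-fold or more higher with BR-DIM than with isoflavone, against 7.01% of all genes, and the median difference was 1.32. The isoflavone 6 h array is the one that stood apart in its luminal genes.

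Of 17 measured aminoacyl-tRNA synthetases, which charge tRNAs and include ATF4 targets, 1 was lower on BR-DIM 48 h, against 4.18% of all genes. None was higher and the median was 0.20. The lower one was RARS1, the arginyl enzyme, which read 2080.2 on BR-DIM 48 h against 5121 on isoflavone 72 h, 2870.5 and 5819 on the 6 h arrays of BR-DIM and isoflavone, and 11221 on the control, so all treated arrays were below the control. GARS1 (0.12), TARS1 (0.23) and SARS1 (0.40) were within 2-fold. None of 20 unfolded protein response genes passed 2-fold, and the median was -0.40. Above 0 lay 0 of the 20, against 6736 of all 13027 genes measured. The chaperone HSPA5, known as BiP, read 9591 late and 7394 early with BR-DIM, 15213 late and 11529 early with isoflavone, and 8138 on the control, a late ratio of -0.67, and its other probe set gave -0.67. XBP1, the factor spliced by IRE1, read 704 on the control, 1888 and 2608 on BR-DIM 6 h and 48 h, and 756 and 3313 on isoflavone 6 h and 72 h, and HERPUD1, of endoplasmic reticulum degradation, gave -0.01.

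**Figure D4:**
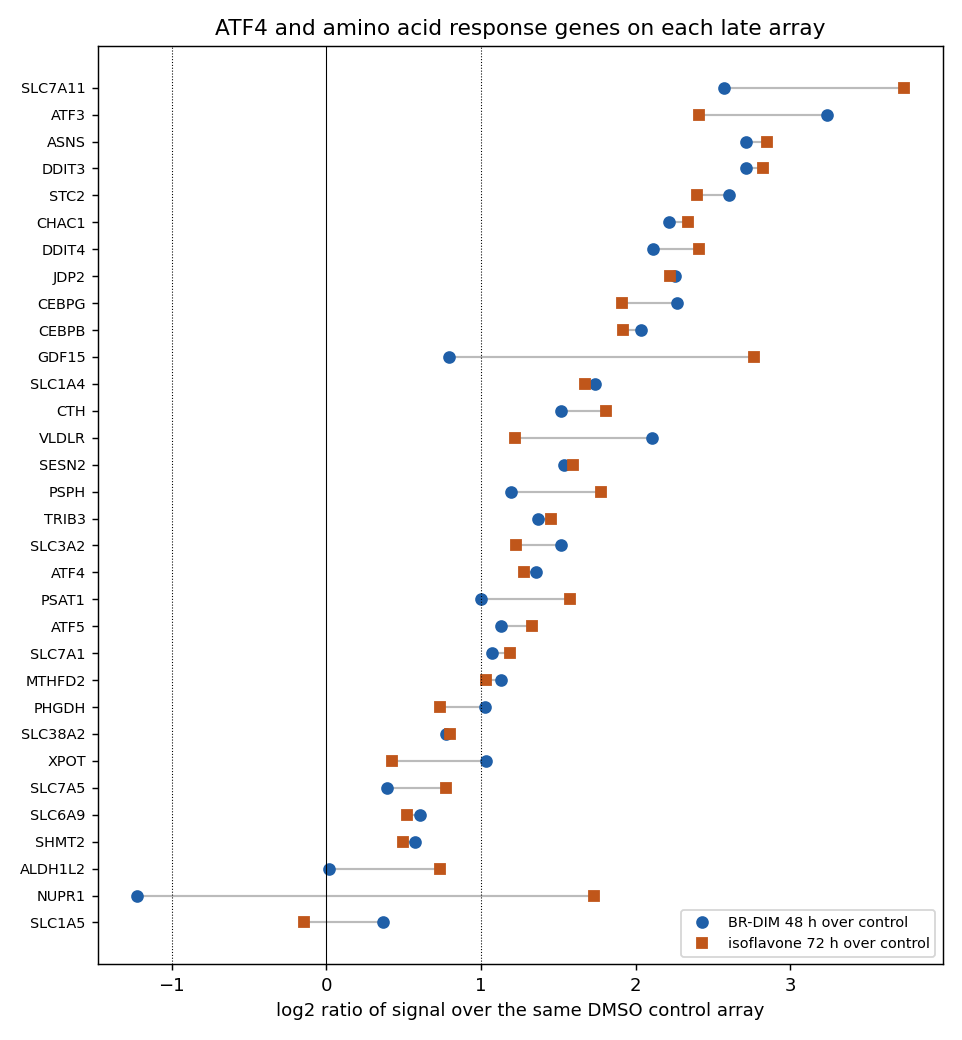
Log2 ratio over the DMSO control of the 32 measured genes of ATF4 and the amino acid response, on BR-DIM 48 h (blue circles) and isoflavone 72 h (orange squares), ordered by the mean of both. Both series use the same control array; the symbols lie close together for most genes, and apart for NUPR1, GDF15 and SLC7A11.

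Few cell cycle genes passed 2-fold between the late arrays. Of 31 mitosis genes 27 had ratios above 0, against 6736 of all 13027 genes measured, with a median of 0.36. Only 1 was higher on BR-DIM 48 h by 2-fold, against 2.35% of all genes, and none was lower. It was MKI67, the proliferation marker Ki-67, which read 5181 on BR-DIM 48 h against 1973 on isoflavone 72 h, 4499.8 and 4542 on the 6 h arrays of BR-DIM and isoflavone, and 5072 on the control. Isoflavone 72 h was the low array, the late ratio was 1.39, and the other 3 probe sets gave 0.08 to 0.85. Of 31 DNA replication genes 2 were higher, against 2.35% of all genes, with a median of 0.32. MCM4, a subunit of the replicative helicase, read 3136 late and 3868 early with BR-DIM, 1293 late and 3522 early with isoflavone, and 2844 on the control, a ratio of 1.28, and its other probe sets gave 0.81 to 1.08. RRM2, of ribonucleotide reductase, gave 1.62, but 0.18 from its other probe set. MCM2 (0.87), MCM5 (0.97) and the polymerase subunit POLD1 (0.99) were just under 2-fold. Over the control, 2-fold losses were seen in 6 of the 31 mitosis genes with isoflavone for 72 h and in 1 with BR-DIM for 48 h, against 2.07% and 3.86% of all genes.

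Among 18 cyclins, CDKs and inhibitors of the G1 phase, 1 was higher, against 2.35% of all genes, and the median was 0.34. The higher one was CCND1, which encodes cyclin D1. The probe set that the study listed read 346 on the control, 182 and 232 on BR-DIM 6 h and 48 h, and 97.8 and 111 on isoflavone 6 h and 72 h, a ratio of 1.07, whereas another gave -0.76, so the direction depended on the probe set. CDKN1B, the CDK inhibitor p27, read 2823 on BR-DIM 48 h against 2046 on isoflavone 72 h, 1782 and 1448 on the 6 h arrays of BR-DIM and isoflavone, and 1379 on the control, a ratio of 0.46, and both late arrays were the brightest of the 5. Apart from CCND1 and KLK3, the genes that the study listed and that were measured here stayed within 2-fold. AKT1, a survival kinase, read 894 late and 927 early with BR-DIM, 1267 late and 1224 early with isoflavone, and 2149 on the control (-0.50), and MITF, a factor of melanocytes and osteoclasts, read 809 on the control, 735 and 382 on BR-DIM 6 h and 48 h, and 425 and 527 on isoflavone 6 h and 72 h (-0.46). The kinase CDK13 gave -0.14 and the cAMP-responsive factor CREB1 0.57. The study chose these genes on these samples, so they are not independent evidence of a direction.

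Genes at least 2-fold above, or below, all 3 other arrays on both late arrays were few. Of 14015 genes, 18 were higher on both (0.128%) and 6 lower (0.0428%). PTX3, a secreted pattern-recognition protein, read 847 on BR-DIM 48 h against 921 on isoflavone 72 h, 114 and 66.2 on the 6 h arrays of BR-DIM and isoflavone, and 94.7 on the control. The late log2 ratio was -0.12, and the other 3 were near the floor. SH3BGR, a thioredoxin-like protein, read 4559.9 late and 844 early with BR-DIM, 7143 late and 804 early with isoflavone, and 424 on the control, and C11orf96 read 956 on the control, 1316 and 6986 on BR-DIM 6 h and 48 h, and 780.1 and 9849 on isoflavone 6 h and 72 h. Both were brighter on isoflavone 72 h than on BR-DIM 48 h, by less than 2-fold. TCIM, a regulator of Wnt signalling, read 1041 on BR-DIM 48 h against 750.4 on isoflavone 72 h, 244 and 127 on the 6 h arrays of BR-DIM and isoflavone, and 16.5 on the control, and AKNA, a centrosomal AT-hook protein, read 604 late and 233 early with BR-DIM, 589 late and 136 early with isoflavone, and 126 on the control. EMP3, a membrane protein, and EMILIN2, an elastin-associated glycoprotein, gave late ratios of 0.54 and -0.59, and SANBR gave 0.45. CD24, a surface glycoprotein, was also among the 18, named after its values were seen, at 1142 on the control, 2543 and 6640.2 on BR-DIM 6 h and 48 h, and 439.9 and 5360.1 on isoflavone 6 h and 72 h.

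The genes low on both late arrays included parts of the lysosome. CTSA, a lysosomal carboxypeptidase, read 553 on BR-DIM 48 h against 553 on isoflavone 72 h, 1141 and 1398 on the 6 h arrays of BR-DIM and isoflavone, and 1546 on the control. GLMP, a lysosomal membrane glycoprotein, read 464 late and 966 early with BR-DIM, 432 late and 1502 early with isoflavone, and 1266 on the control. A second probe set was low on both late arrays too, at 249.5 and 202, against 389 to 574 on the other 3, whereas the other was not, at 359.5 and 491. DEF8, linked to lysosome positioning, read 1236 on the control, 959.5 and 429.8 on BR-DIM 6 h and 48 h, and 897 and 359 on isoflavone 6 h and 72 h, and KBTBD4, a ubiquitin ligase adaptor, read 197 on BR-DIM 48 h against 223 on isoflavone 72 h, 522 and 500.5 on the 6 h arrays of BR-DIM and isoflavone, and 562 on the control. Of 23 measured lysosomal genes, 5 (BR-DIM 48 h) and 1 (isoflavone 72 h) were at least 2-fold under the control, against 3.86% and 2.07% of all genes, and between the late arrays 0 were higher and 2 lower, with a median of -0.07. Those 2, against 4.18% of all genes, were GPNMB and the protease CTSD (a bound of -1.75).

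Setting each late array beside its own 6 h array shared no array between the compounds. BR-DIM 48 h over 6 h gave 244 higher genes of 13383 (1.82%) and 501 lower (3.74%), and isoflavone 72 h over 6 h gave 983 higher of 12658 (7.77%) and 239 lower (1.89%). Higher in both were 61 genes, 25.0% of the 244 and 6.21% of the 983. Lower in both were 24, 4.79% of the 501 and 10.0% of the 239. The largest group was lower with BR-DIM and higher with isoflavone, 152 genes, 30.3% of the 501 and 15.5% of the 983, and 3 went the opposite way. The 152 are the same genes that were left out of some counts above, so leaving them out brings that count to 0. Compound, time, culture and label cannot be told apart for them. Beside PTX3, SH3BGR, C11orf96 and TCIM, the largest rises in both were of GPAT3, INSC, INSM1 and DPYD. INSM1, a neuroendocrine zinc finger factor, read 823 late and 301 early with BR-DIM, 588 late and 93.0 early with isoflavone, and 218 on the control, and DPYD, which degrades pyrimidines, read 414 on the control, 236 and 852 on BR-DIM 6 h and 48 h, and 268 and 718 on isoflavone 6 h and 72 h. Among the falls, ATP5MC1, a subunit of the mitochondrial ATP synthase, read 2328 on BR-DIM 48 h against 3035 on isoflavone 72 h, 5255 and 7529 on the 6 h arrays of BR-DIM and isoflavone, and 7574 on the control, and ARFGAP2, a regulator of Golgi transport, read 565 late and 1198 early with BR-DIM, 687 late and 1604 early with isoflavone, and 1209 on the control. Both late arrays were the lowest for these. NAGPA, which prepares the lysosomal targeting tag, gave -1.09 over its 6 h array with BR-DIM and -1.86 with isoflavone.

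The difference between the compounds at 6 h, measured on the other arrays, ran mostly in favour of BR-DIM: 916 genes of 13075 were higher with BR-DIM by 2-fold or more (7.01%) and 146 lower (1.12%). Without the 152 genes 778 of 12923 were higher. Of the 306 late higher genes 58 were also higher at 6 h (19.0% of 306 and 6.33% of 916), and of the 544 late lower genes 24 were also lower (4.41% of 544 and 16.4% of 146). A further 158 were lower late and higher at 6 h (29.0% of 544 and 17.2% of 916), and 3 the reverse. CYP1B1, IL12A and GPAT3 led the genes higher at both times, with 6 h log2 differences of 2.68, 2.23 and 1.77, those of IL12A and GPAT3 being bounds. The nuclear receptor RORB (1.49 late, 2.23 at 6 h), the orphan receptor NR4A1 (1.42 and 1.56) and the hypoxia factor EPAS1 (1.44 and 1.38) followed. Lower at both were ATF7IP2, a cofactor of heterochromatin (-1.54 and -1.98), ATXN1L, an ataxin-like repressor (-1.30 and -1.21), and the calcium channel CACNA1B (-1.96 and a bound of -1.57). EHF, CDH1, H2AJ, MGST1, IGFBP3, MAGEA6 and KLK3 led the genes that turned, with 6 h differences from 3.84 to 4.73, bounds for EHF, CDH1 and IGFBP3. CCL20 and MT1X, by contrast, had 6 h differences of 1.15, a bound, and 0.27.

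**Figure D5:**
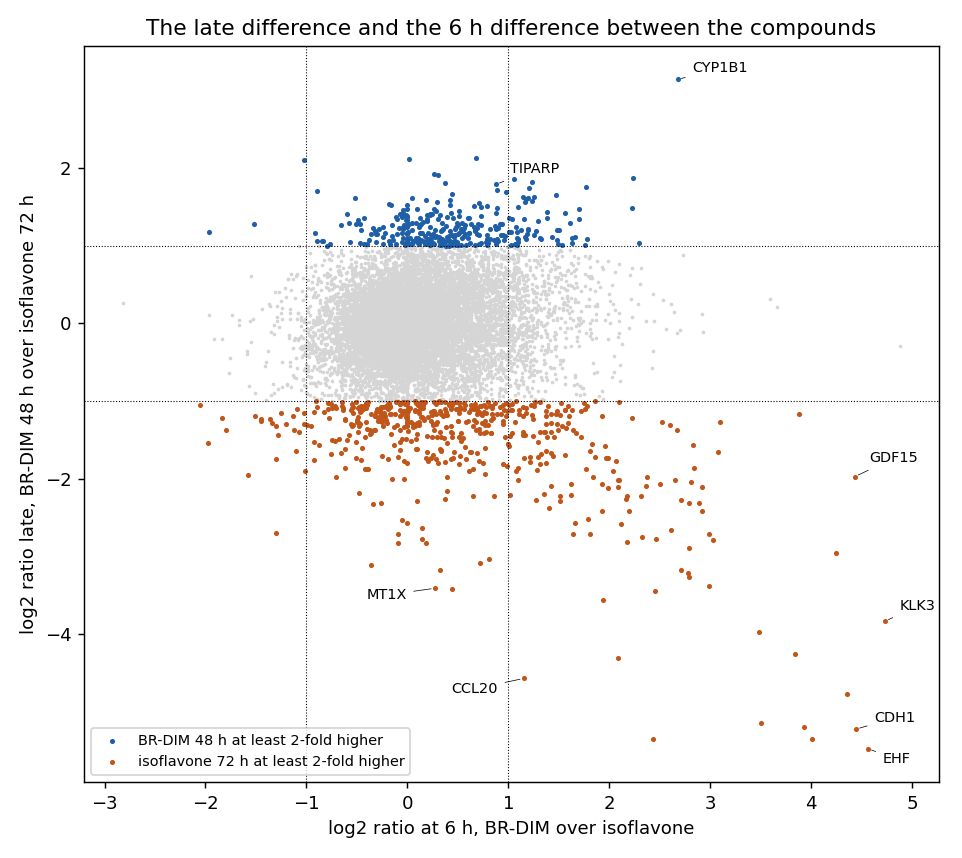
Late log2 ratio (BR-DIM 48 h over isoflavone 72 h, vertical) of each measured gene against the log2 ratio at 6 h (BR-DIM over isoflavone, horizontal), with dotted lines at 2-fold. CYP1B1 is high on both axes, KLK3 and CDH1 are high at 6 h and low late, and no array is shared between the axes.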

How the data were processed

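RNA of C4-2B cells was measured on 5 Affymetrix human genome arrays, 1 per condition. The authors made the deposited intensities, 1 linear value per probe set, with the Microarray Suite software (MAS5, per the labels; version not given in the sources used here). They brought the arrays to 1 common mean, which makes arrays comparable only if most genes are unchanged. Detection calls were not used here. Depth does not apply to arrays, and their number limits the precision. No value columns were left unmapped.

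Of 54613 probe sets, the platform annotation pairs 41091 with 1 gene symbol, 1801 with several and 11721 with none, and the latter groups were left out. Each gene was represented by the brightest of its probe sets, by mean over the arrays, or from the probe set listed by the study (7 genes). Signals were raised to the floor of 97.1. A gene was measured if it was above the floor on at least 1 of both arrays, and log2 ratios past 2-fold were counted. No test was possible with 1 array per condition. Genes were named by rule: the 12 largest ratios each way, the 8 most distant genes shared by the late arrays and for each overlap with an array pair not shared, at 4 times the floor or more, the study's genes and the 4 largest of each of 53 lists. The members and lists were chosen with earlier results of these data known, and further list members and CD24, INSIG1, PTCH1, DHRS2, DIO3, CCL8 and CFAP70 were named after their values were seen. Genes of the Y chromosome and XIST were left out of naming, and some genes are not reported here. Alternatives were the floor left out, set at the 75th percentile or added as a pseudocount, quantile normalization and median ratio scaling. Others were all probe sets averaged, probe sets ending in _s_at or _x_at left out, 1.5-fold and 3-fold rules, and the 152 genes left out. The counting was tested on simulated data. Python 3.11.15, numpy 2.4.6, pandas 2.3.3, scipy 1.17.1 and matplotlib 3.10.9 were used.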

Additional observations from a re-analysis of the deposited data

Results flagged for a closer look

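For 152 genes the late array and its own 6 h array differed in opposite directions for the compounds, by at least 2-fold each: BR-DIM 48 h was under BR-DIM 6 h and isoflavone 72 h above isoflavone 6 h. CDH1 and MGST1 are among them, the former at log2 -4.41 for BR-DIM against a bound of 5.27 for isoflavone and the latter at -5.02 against 4.35. They were chosen by those 2 differences alone, so a member need not lie under the control on both low arrays. GDF15, for example, read 1031 on BR-DIM 48 h against 596 on the control. With 1 array at each time an effect of compound or time cannot be told apart from one of culture or label. The difference was not tested.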

How the results depend on the processing

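No paired analysis was possible because the labels carry no replicate numbers and each condition has 1 array. Counts are given here in a fixed order: genes higher and lower on BR-DIM 48 h than on isoflavone 72 h, genes above and below the other 3 arrays on both late arrays, genes that differed between the compounds in the same and in opposite directions late and at 6 h, and genes higher and lower with time for both compounds. They were 306, 544, 18, 6, 82, 161, 61 and 24. Without the floor they were 812, 916, 68, 46, 202, 296, 111 and 58, and with the floor at the 75th percentile 79, 155, 5, 2, 13, 34, 16 and 5. Averaging all probe sets of a gene gave 149, 305, 9, 3, 47, 100, 30 and 13. A 1.5-fold rule gave 1449, 1571, 139, 60, 563, 484, 387 and 210, and a 3-fold rule 26, 166, 4, 0, 3, 64, 5 and 0. At 1.5-fold more genes thus differed in the same direction late and at 6 h than in opposite directions, the reverse of 2-fold. With the floor added as a pseudocount, 195 genes were higher on BR-DIM 48 h, 8 above and 1 below on both late arrays, 25 in the same direction at both times, and 27 higher and 4 lower with time for both compounds. Without probe sets ending in _s_at or _x_at, 11 genes were above on both late arrays and 39 higher with time. Without the 152 genes, 29 genes were in opposite directions and 82 in the same one. The fall of the first count from 161 follows largely from how those genes were chosen. Quantile normalization and median ratio scaling kept each of these counts within 1.5 times. The share of changed genes that was higher on BR-DIM 48 h was 36.0%, against 47.0% without the floor, 48.0% at 1.5-fold and 13.5% at 3-fold. Among the genes named, CCND1 at -0.76 and SQSTM1 at 0.27 turned direction without the _s_at and _x_at probe sets. For every setting above, beyond fewer or more genes past a stricter or looser rule, the cause was not tested. The number of arrays, and signals near the floor, limit the precision.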

Other observations

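Lipid genes differed in both directions between the late arrays. Of 23 measured genes of cholesterol synthesis and sterol regulation 3 were higher on BR-DIM 48 h, HMGCS1, MSMO1 and INSIG1, and 2 lower, with a median of 0.02. Over all genes 2.35% were higher and 4.18% lower. HMGCS1, which starts the mevalonate pathway, read 809 on the control, 1812 and 1842 on BR-DIM 6 h and 48 h, and 1662 and 766 on isoflavone 6 h and 72 h, a late log2 ratio of 1.27. MSMO1, a sterol oxidase, gave 1.03. Those lower were TM7SF2, a sterol reductase (-2.27), and NR1H3, the oxysterol receptor (-1.68, a bound). SREBF1, the regulator of fatty acid synthesis, read 51.3 on BR-DIM 48 h against 558 on isoflavone 72 h, 387 and 112 on the 6 h arrays of BR-DIM and isoflavone, and 211 on the control, a bound of -2.52, and the acyl-CoA synthetase ACSL1 gave -1.05. For TM7SF2 and SREBF1 the isoflavone 6 h array was also below the control.

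For the lists that follow, the shares over all genes were 2.35% higher and 4.18% lower on BR-DIM 48 h. Of 23 glycolysis and hypoxia-inducible genes 3 were lower on BR-DIM 48 h, the mitophagy receptors BNIP3 (-1.03) and BNIP3L (-1.32) and the kinase PDK1 (-1.17), none was higher and the median was 0.03. Among 16 heat shock proteins 1 was lower, HSPB1, the small heat shock protein HSP27, at 1136 late and 8454 early with BR-DIM, 5631 late and 1140.3 early with isoflavone, and 6227 on the control. Of 30 measured genes of the RANKL pathway, which drives osteoclasts, 1 was lower, the calcineurin subunit PPP3CA (-1.71), none was higher and the median was -0.02. Among 17 receptor tyrosine kinases and ligands 1 was lower, ERBB3 (-2.02). HSPB1, PPP3CA and ERBB3 were low on isoflavone 6 h as well. Of 17 Hippo genes 2 were higher, the factor TEAD4 (1.22) and the adaptor AJUBA (1.11), with a median of 0.20. None of 24 oxidative phosphorylation subunits, 18 cytosolic ribosomal proteins or 24 proteasome subunits passed 2-fold, with medians of 0.06, 0.14 and -0.02.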
